A study of Mus musculus with 28 samples.

Results

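The genes described here are 48 genes of S phase: the listed parts of the DNA replication machinery, the enzymes that make its nucleotides, the proteins that copy chromatin behind the fork, and regulators of entry into S phase. They were taken by name, and all 48 were found among the 12388 and 12710 genes tested in a pair of bulk RNA-seq experiments and among the 27933 genes of a single-cell table. All RNA came from CD8+ T cells sorted from MC38-OVA tumours (a mouse colon carcinoma line that expresses ovalbumin) in wild-type C57BL/6 mice. The treatment experiment compared Tim-3+PD-1+ cells (DP, double positive for the co-inhibitory receptors Tim-3 and PD-1) with Tim-3-PD-1- cells (DN, double negative), both sorted on day 12 after implantation. The mice had received anti-Tim-3 plus anti-PD-1 antibodies (blockade) or isotype control antibodies, and each of the 4 groups held 3 libraries. In the subset experiment, PD-1- CD8+ cells were sorted into naive-like (CD62LhiSlamf7-CX3CR1-, 6 libraries), effector-like (CD62L-Slamf7hiCX3CR1+, 3 libraries) and memory-like cells (CD62L-Slamf7hiCX3CR1-, 5 libraries). The single-cell table held DN cells of isotype-treated and of blockade-treated mice, 1 library each, told apart in its columns only by a barcode suffix of 1 or 2. Values are CPM (expected counts of a gene scaled to the TMM-adjusted total of its library), unless another unit is named.

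Before S phase, Cdc6 and Cdt1 load the ring-shaped Mcm2-7 complex onto origins, and Cdc45 and the GINS complex turn it into the active helicase. Polymerase alpha with primase starts each strand, the clamp loader Rfc places the sliding clamp Pcna, and polymerases delta and epsilon extend the strands while Rpa covers single-stranded DNA. Most of these genes are textbook targets of E2F transcription factors, which are released when cyclin-dependent kinases phosphorylate the retinoblastoma protein, and their mRNA rises as activated T cells enter division. Naive T cells are quiescent and hold little of it.

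The promoter letters come first, as a description of the members. A link between the letters and the differences in expression was not tested. RefSeq windows (GRCm38.p6) of 300 bases, from 250 before to 50 after an annotated start, were found for 40 of the 48 members. The E2F-type letters TTTCCCGC or TTTGGCGC, on either strand, lay in the windows of 13 of these 40 members (32.5%), beside 486 of 27025 genes of all kinds (1.80%). Of the genes with a window, 7 of the 10 helicase loading and activation genes held them (70.0%), 3 of the 6 polymerase and primase genes and 0 of the 5 nucleotide supply genes. A match is a description of letters, not a site, and no match says only that these letters are not in the window. The 6 stretches of 250 bases upstream of the start that hold the letters are printed because they carry this difference from other genes, 5′ to 3′ on the strand of the gene, with the matching letters in capitals.
Mcm5: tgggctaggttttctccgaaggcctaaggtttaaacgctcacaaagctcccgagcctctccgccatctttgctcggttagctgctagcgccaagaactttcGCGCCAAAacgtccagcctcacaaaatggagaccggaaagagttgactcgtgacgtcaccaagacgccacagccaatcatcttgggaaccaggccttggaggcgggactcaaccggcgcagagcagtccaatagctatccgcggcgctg
Mcm6: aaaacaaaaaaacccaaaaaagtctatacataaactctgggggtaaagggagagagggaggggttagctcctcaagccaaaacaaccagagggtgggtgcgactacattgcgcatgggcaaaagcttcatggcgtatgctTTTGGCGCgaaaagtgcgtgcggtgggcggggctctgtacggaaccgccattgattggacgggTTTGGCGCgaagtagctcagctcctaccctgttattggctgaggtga
Mcm7: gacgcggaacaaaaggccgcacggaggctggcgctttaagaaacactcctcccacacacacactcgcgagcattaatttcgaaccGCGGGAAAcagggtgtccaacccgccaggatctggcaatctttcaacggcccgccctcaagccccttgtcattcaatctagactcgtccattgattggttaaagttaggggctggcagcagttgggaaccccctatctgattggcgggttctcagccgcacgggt
Cdc6: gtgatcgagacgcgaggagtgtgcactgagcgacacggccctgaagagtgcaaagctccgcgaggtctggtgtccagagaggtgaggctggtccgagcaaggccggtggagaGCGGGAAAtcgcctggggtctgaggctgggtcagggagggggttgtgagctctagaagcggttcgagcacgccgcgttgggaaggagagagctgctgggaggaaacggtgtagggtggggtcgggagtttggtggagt
Gins3: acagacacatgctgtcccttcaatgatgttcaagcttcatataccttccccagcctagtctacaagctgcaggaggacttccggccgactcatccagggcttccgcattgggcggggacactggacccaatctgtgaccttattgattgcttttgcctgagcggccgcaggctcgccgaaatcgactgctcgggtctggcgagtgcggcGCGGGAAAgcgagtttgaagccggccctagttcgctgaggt
Pola1: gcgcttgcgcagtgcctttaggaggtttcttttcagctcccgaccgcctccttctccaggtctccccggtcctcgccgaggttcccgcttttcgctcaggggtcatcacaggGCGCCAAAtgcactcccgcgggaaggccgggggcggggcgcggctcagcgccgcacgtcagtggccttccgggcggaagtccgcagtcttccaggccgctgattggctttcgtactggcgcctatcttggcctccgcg
These stretches are Mcm5 at chr8:75109259-75109508 (plus strand), Mcm6 at chr1:128359706-128359955 (minus strand), Mcm7 at chr5:138171884-138172133 (minus strand), Cdc6 at chr11:98907901-98908150 (plus strand), Gins3 at chr8:95633309-95633558 (plus strand) and Pola1 at chrX:93632156-93632405 (minus strand). Counted from the start site, the capitals begin at -149 in Mcm5, -110 and -47 in Mcm6, -165 in Mcm7, -138 in Cdc6, -41 in Gins3 and -138 in Pola1. The capitals read as the searched letters or as their reverse complement, by the strand on which they matched. In Mcm3, Cdt1, Rfc3, Pold1, Pole2, Dnmt1 and E2f2 the matches lay after the start site. A list of 25 G2/M genes (mitotic genes) gave the contrast: 0 of its 22 genes with a window held the E2F-type letters, while 77.3% held TTTGAA, the letters of the cell cycle homology region (CHR), beside 20% of the members with a window and 20.2% of all genes. CCAAT stood in a window of 62.5% of these members, 90.9% of the G2/M genes and 41.1% of all genes.

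**Figure D1:**
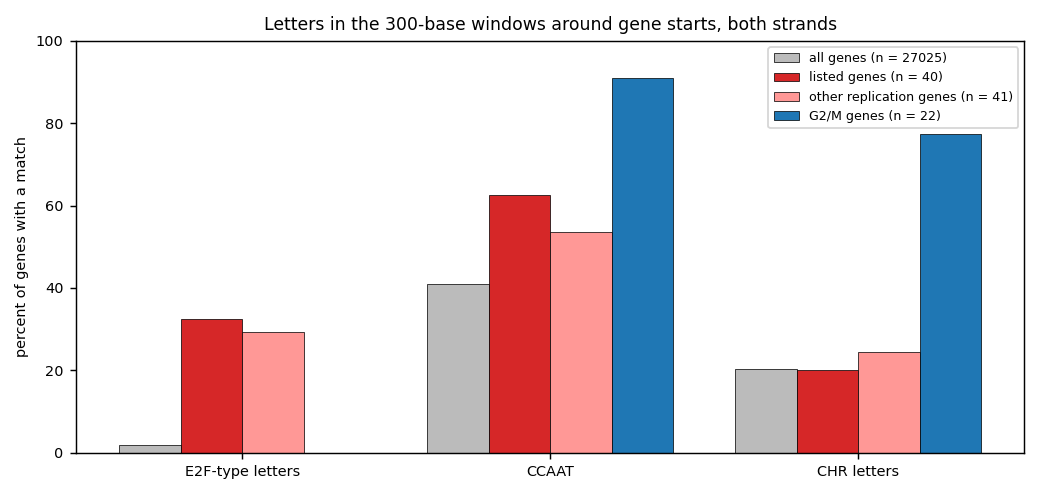
Share of genes (percent, bar height) whose 300-base promoter window holds E2F-type, CCAAT or CHR letters on either strand, for all 27025 genes, the 40 listed genes with a window, 41 other replication genes and 22 G2/M genes. E2F-type letters lie in 32.5% of the listed genes and in 0 of the G2/M genes, and CHR letters in 20% and 77.3%.

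Some facts of the libraries bear on the members. Bulk libraries held 5027083 to 7978214 counts in the subset and 8005823 to 13579278 counts in the treatment experiment. The sort genes followed the labels in the treatment experiment: Pdcd1, which encodes PD-1, lay at 25.4 to 136 CPM in DN and 531 to 628 in DP libraries, and Havcr2, which encodes Tim-3, at 2.48 to 36.4 and 245 to 391. In the subset experiment, the sort gene Cx3cr1 ran from 249.99 to 406 CPM in effector-like libraries, against at most 20.2 in memory-like ones and at most 5.71 in naive-like ones. Naive-like libraries have a different date in their names from the others of the subset experiment, and the date cannot be told apart from the group. Tumour and stroma markers summed to 565 CPM in naive-like library 6, and to 817 and 590 in effector-like libraries 1 and 2, against at most 90.7 in the other 11 libraries. The names of effector-like libraries 1 and 2 hold 3 numbers each and that of library 3 holds 1, with no word on what the numbers stand for. The labels do not say that the libraries of a group came from separate animals, so a p-value here measures no more than how far these libraries spread.

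In tumours, Tim-3+PD-1+ cells held more mRNA of nearly every replication gene than Tim-3-PD-1- cells. Of the 48 members, 46 were higher in DP and 0 lower (adjusted p under 0.05, quasi-likelihood test of edgeR, Benjamini-Hochberg adjusted, 6 against 6 libraries), with 21.9% of all tested genes called higher. The members' median log2 fold change was 1.20, beside -0.03 over all 12710 genes. For 44 members every DP library lay above every DN library, which held for 12.8% of all genes. The exceptions were Cdt1, Gins1, Pole2 and E2f1. In such bulk libraries, fewer cells in S phase and less RNA per cell cannot be told apart. Summed over the members, the DN libraries held 2177 to 2882 CPM and the DP libraries 4986 to 6096.

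**Figure D2:**
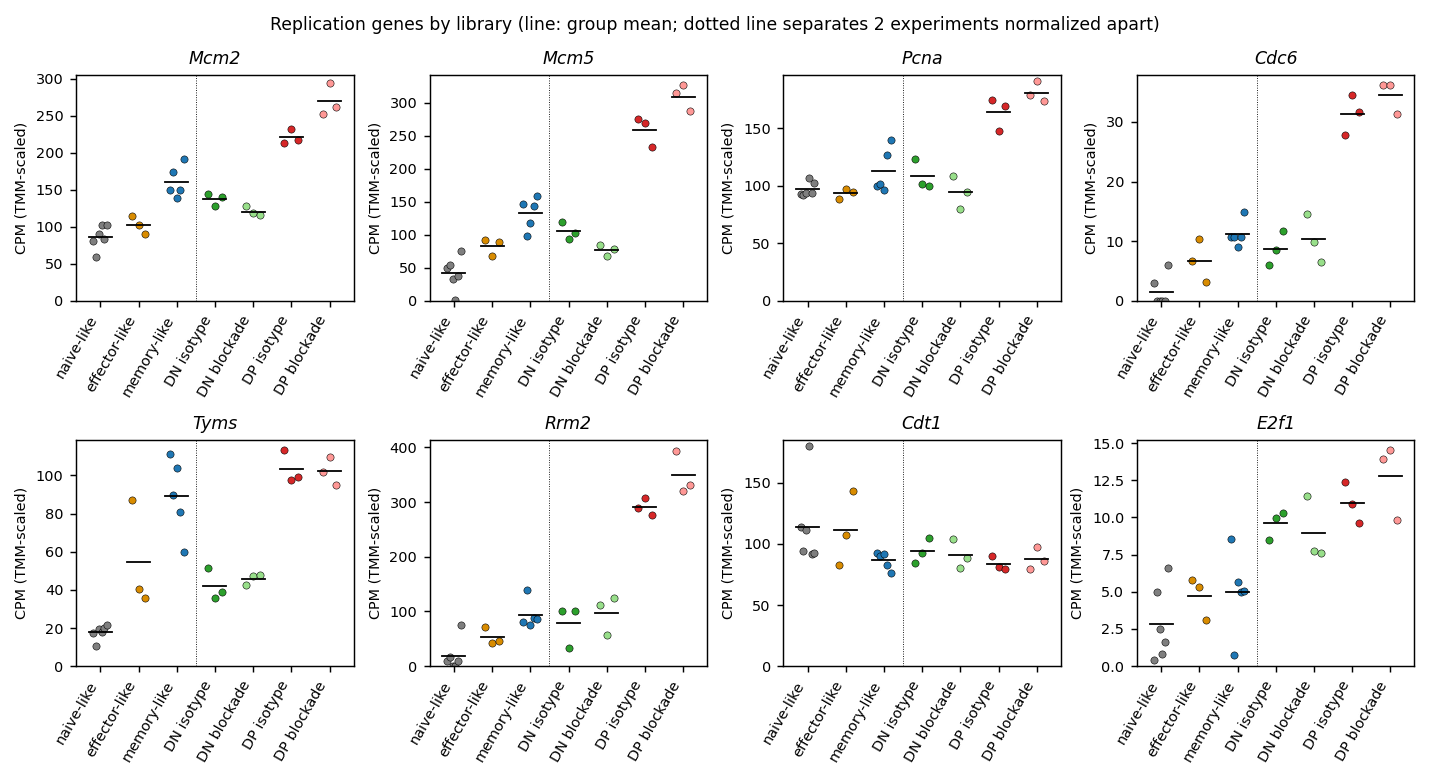
CPM (y axes, linear from 0) of 8 members in each library, by group on the x axes, with a line at each group mean; the dotted line separates the subset from the treatment experiment, which were scaled separately. Within the treatment experiment, Mcm2, Mcm5, Pcna, Cdc6, Tyms and Rrm2 are higher in each of the 6 DP libraries than in any DN library, while Cdt1 and E2f1 overlap between DP and DN.

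Of the 13 genes of helicase loading and activation, 12 were higher in DP, with a median log2 fold change of 1.21. Mcm5, a subunit of the helicase ring, stood at 119.7, 93.8 and 102 CPM in DN isotype libraries, 84.9, 68.6 and 79.2 in DN blockade, 275, 270.1 and 233 in DP isotype and 314, 327 and 287 in DP blockade. No DP library overlapped with a DN library, and the log2 fold change was 1.65 (SE 0.08, adjusted p = 3.9e-08). The ring subunit Mcm7 measured 122, 98.6 and 130.1 CPM in DN isotype libraries, 91.8, 80.1 and 89.4 in DN blockade, 228, 211 and 203 in DP isotype and 256, 265 and 243 in DP blockade. Its DP libraries lay above all DN libraries, with a log2 fold change of 1.21 (SE 0.08, adjusted p = 1.8e-07). Mcm2, at 144, 128 and 139.9 CPM in DN isotype libraries, 128, 118 and 116 in DN blockade, 213, 233 and 217 in DP isotype and 253, 294 and 262 in DP blockade, again separated the cells completely, by a log2 fold change of 0.92 (SE 0.06, adjusted p = 2.9e-07). For Mcm3 the libraries held 153, 117 and 135 CPM in DN isotype libraries, 148, 99.95 and 126 in DN blockade, 292, 293 and 266 in DP isotype and 327, 358 and 313 in DP blockade, and the log2 fold change was 1.24 (SE 0.10, adjusted p = 9.1e-07). Mcm4 had the smallest difference of the ring, with 161, 149 and 144 CPM in DN isotype libraries, 124, 129 and 125 in DN blockade, 227, 236 and 208 in DP isotype and 235, 259 and 244 in DP blockade. Even so, its DP and DN libraries did not overlap, and the log2 fold change was 0.76 (SE 0.06, adjusted p = 7.5e-07). Mcm6, the subunit with the most counts, held 232, 177 and 226 CPM in DN isotype libraries, 196, 177 and 188 in DN blockade, 391, 358 and 369.8 in DP isotype and 422, 462 and 415 in DP blockade. Its DP libraries all lay above its DN libraries, with a log2 fold change of 1.01 (SE 0.07, adjusted p = 5.2e-07). All 6 subunits of the ring were thus higher in DP, between 0.76 and 1.65 on the log2 scale.

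The loader Cdc6 was far scarcer, at 5.97, 8.58 and 11.7 CPM in DN isotype libraries, 14.6, 9.87 and 6.43 in DN blockade, 27.7, 34.5 and 31.7 in DP isotype and 36.1, 36.1 and 31.3 in DP blockade. Every DP library held more than the highest DN library, and the log2 fold change was 1.79 (SE 0.20, adjusted p = 1.4e-05). Mcm10, which helps to start the loaded helicase, spread widely among DN libraries, at 10.8, 2.93 and 12.3 CPM under isotype and 12.3, 2.66 and 8.02 under blockade. Both low values belong to replicate 2 of their group, and the log2 fold change of DP over DN was 1.94 (SE 0.35, adjusted p = 0.00068). Cdc45 and the GINS subunits Gins1, Gins2 and Gins3, which complete the helicase, had log2 fold changes of 1.64, 1.09, 1.60 and 0.90.

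Cdt1, the partner of Cdc6 in loading, was the exception. Its libraries held 84.4, 92.9 and 105 CPM in DN isotype libraries, 104, 80.5 and 88.4 in DN blockade, 90.2, 81.5 and 79.3 in DP isotype and 79.7, 97.7 and 86.1 in DP blockade. The groups overlapped throughout, and DP and DN did not differ beyond their spread, with a log2 fold change of -0.11 (SE 0.09, adjusted p = 0.33). Its window holds E2F-type letters, as the windows of Mcm5, Mcm7 and Cdc6 do.

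The clamp, clamp loader and single-strand binding genes were all higher in DP, 9 of 9, with a smaller median of 0.83. Pcna, the sliding clamp, lay at 123, 101 and 100.3 CPM in DN isotype libraries, 109, 79.8 and 94.9 in DN blockade, 175, 148 and 169 in DP isotype and 179, 191 and 173 in DP blockade. The lowest DP library, at 148, stood above the highest DN library, at 123, and the log2 fold change was 0.77 (SE 0.09, adjusted p = 2.0e-05). Rfc2, a clamp loader subunit, varied little within groups, with 74.9, 75.2 and 73.9 CPM in DN isotype libraries, 76.3, 70.9 and 69.8 in DN blockade, 126, 116 and 119 in DP isotype and 147, 149 and 132 in DP blockade. Its log2 fold change was 0.83 (SE 0.06, adjusted p = 4.2e-07). Rfc1, the large subunit of the same complex, differed less, by 0.36 (SE 0.07, adjusted p = 0.0011). The other loader subunits Rfc3, Rfc4 and Rfc5 differed by 1.28, 1.20 and 0.95, and the 3 subunits of Rpa by 0.55 to 0.97.

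All 8 polymerase and primase genes were higher in DP, with a median of 0.92. Pole, the catalytic subunit of the leading strand polymerase epsilon, stood at 22.97, 16.3 and 23.9 CPM in DN isotype libraries, 16.4, 15.9 and 16.3 in DN blockade, 49.1, 44.7 and 45.9 in DP isotype and 57.6, 54.6 and 56.6 in DP blockade. The lowest DP library, at 44.7, was above the highest DN library, at 23.9, with a log2 fold change of 1.47 (SE 0.10, adjusted p = 2.4e-07). Its partner Pole2 differed only by 0.44 (SE 0.16, adjusted p = 0.036), and its libraries overlapped. The primase subunits Prim1 and Prim2 had log2 fold changes of 1.38 and 1.21, the polymerase alpha subunits Pola1 and Pola2 of 1.12 and 0.51, and the polymerase delta subunits Pold1 and Pold2 of 0.73 and 0.49. The catalytic subunits Pola1, Pold1 and Pole thus had larger differences than their partners Pola2, Pold2 and Pole2. Both primase subunits, which work with polymerase alpha, lay above Pola1. None of this was tested as a difference between genes.

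The 3 genes of lagging strand processing and repair were higher in DP, with log2 fold changes of 1.75 for the ligase Lig1, 1.29 for the flap nuclease Fen1 and 1.38 for the exonuclease Exo1. Lig1 held 62.9, 34.8 and 47.3 CPM in DN isotype libraries, 46.7, 29.2 and 38.5 in DN blockade, 139, 126 and 127 in DP isotype and 151, 175 and 151 in DP blockade. Its lowest DP library, at 126, lay above the highest DN library, at 62.9, and the adjusted p was 1.1e-06.

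Nucleotide supply had the highest median of the roles, 1.53, with 5 of 5 genes higher. Rrm2, the subunit of ribonucleotide reductase that is made in S phase, measured 100.2, 34.1 and 102 CPM in DN isotype libraries, 112, 57.3 and 124 in DN blockade, 289.8, 307 and 277 in DP isotype and 394, 320.2 and 332 in DP blockade. The DN values spread widely, with replicate 2 lowest in both treatments, but no DN library reached a DP library, and the log2 fold change was 1.86 (SE 0.25, adjusted p = 6.5e-05). Rrm1, the other subunit, stood at 107, 67.4 and 121 CPM in DN isotype libraries, 95.3, 88.6 and 108 in DN blockade, 268, 275 and 253 in DP isotype and 313, 292 and 294 in DP blockade, a log2 fold change of 1.53 (SE 0.12, adjusted p = 8.4e-07). Tyms, thymidylate synthase, held 51.5, 35.8 and 38.9 CPM in DN isotype libraries, 42.4, 47.3 and 47.9 in DN blockade, 114, 97.5 and 99.4 in DP isotype and 102, 109.9 and 94.8 in DP blockade. Here DN and DP were again separate in every library, with a log2 fold change of 1.23 (SE 0.09, adjusted p = 7.5e-07). The thymidine kinase Tk1 and the dUTPase Dut differed by 1.54 and 1.22.

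Among the 6 genes that copy chromatin and DNA methylation, all higher in DP, the histone chaperone Asf1b had the largest log2 fold change of all 48 members. It stood at 30.3, 20.3 and 32.8 CPM in DN isotype libraries, 20.1, 19.6 and 22.5 in DN blockade, 98.3, 97.3 and 103 in DP isotype and 113, 99.98 and 105 in DP blockade. The DP libraries lay within 97.3 to 113 CPM and no DN library passed 32.8, and the log2 fold change was 2.09 (SE 0.11, adjusted p = 4.1e-08). Chaf1a and Chaf1b, subunits of the chromatin assembly factor CAF-1, differed by 1.92 and 1.02. The maintenance methyltransferase Dnmt1 and its partner Uhrf1 differed by 0.91 and 1.54, and Slbp, which binds histone mRNA, by 0.58 (SE 0.06, adjusted p = 1.6e-05). Of the G1/S regulators, 3 of 4 were higher: the cyclin E genes Ccne1 and Ccne2, at 1.53 and 1.40, and E2f2 at 1.15. Ccne1 held 20.4, 13.6 and 15.5 CPM in DN isotype libraries, 19.7, 17.1 and 18.9 in DN blockade, 46.9, 44.1 and 45.03 in DP isotype and 60.3, 58.4 and 50.8 in DP blockade, with no overlap. E2f1, at 8.5, 9.99 and 10.3 CPM in DN isotype libraries, 11.4, 7.72 and 7.62 in DN blockade, 12.4, 10.9 and 9.63 in DP isotype and 13.9, 14.5 and 9.83 in DP blockade, overlapped between DP and DN, with a log2 fold change of 0.35 (SE 0.16, adjusted p = 0.094). The pair of E2F genes on the list therefore stood on different sides of the threshold, and the difference between them was not tested.

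**Figure D3:**
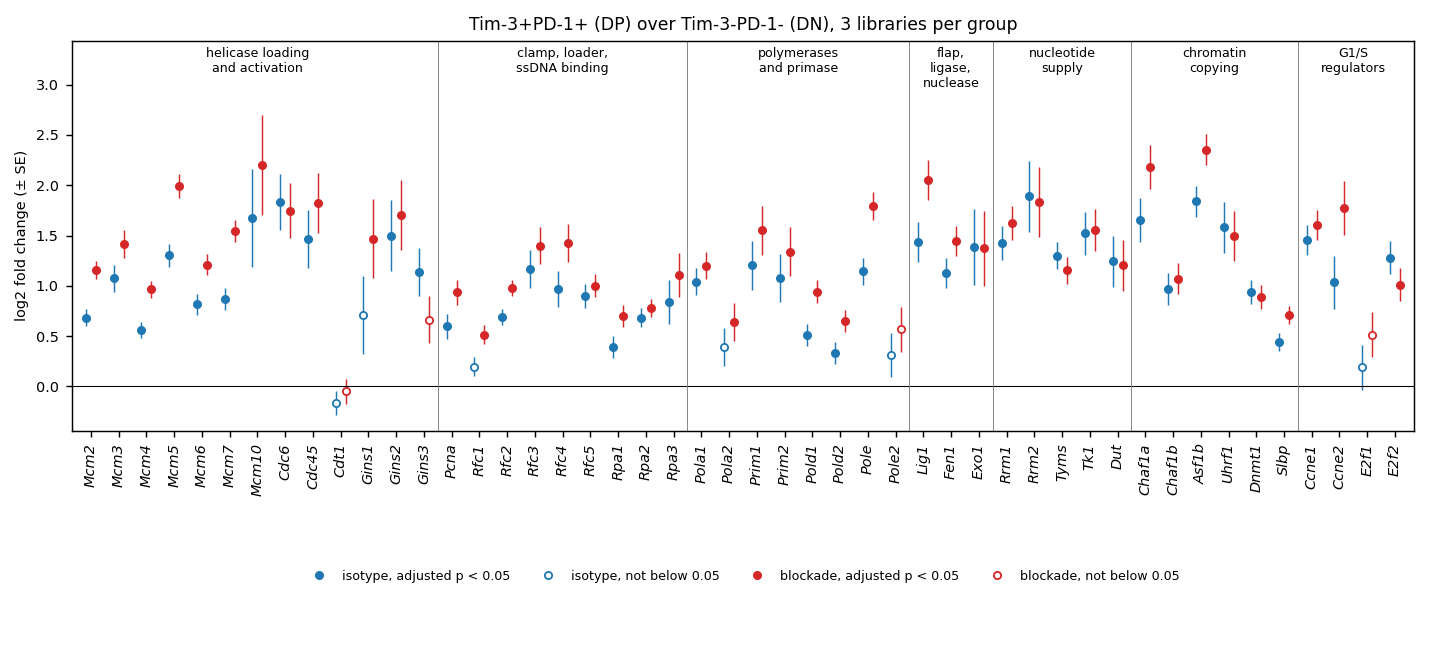
Log2 fold change of DP over DN (y axis, points with bars of 1 SE) for each of the 48 members (x axis, in blocks by role), under isotype (blue) and blockade (red), 3 libraries per group, filled where the adjusted p is under 0.05. Cdt1 alone lies below 0 under both treatments, and open points also mark Gins1, Rfc1, Pola2, Pole2 and E2f1 under isotype and Gins3, Pole2 and E2f1 under blockade.

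The difference held within each treatment. Under isotype 42 of 48 members were higher in DP (15.0% of all genes were called higher) with a median of 1.06, and under blockade 44 of 48 (14.4%) with a median of 1.28. The members not called were Cdt1, Gins1, Rfc1, Pola2, Pole2 and E2f1 under isotype, and Cdt1, Gins3, Pole2 and E2f1 under blockade. Without overlap between the 3 DP and 3 DN libraries were 45 members under isotype (22.3% of all genes) and 46 under blockade (22.8%).

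Several marker lists moved with DP against DN, and their part in the members' difference was not tested. The 8 plasmacytoid dendritic cell markers summed to 880 to 2242 CPM in DN and 257 to 471 in DP libraries, and all 8 were lower in DP; the defining marker Siglech lay at 214 to 725 CPM in DN and 0 to 7.45 in DP. Myeloid markers summed to 45.9 to 203 CPM in DN and 207 to 512 in DP, with 7 of 10 higher and 1 lower. CD4 T cell markers summed to 62.1 to 161 CPM in DN and 14.5 to 58.1 in DP, while core T cell markers were higher in DP for 7 of 8. Tumour and stroma markers overlapped, with 113 to 1509 CPM in DN and 327 to 635 in DP. With the DN libraries of the lowest and the highest tumour marker sum left out, 47 members were called higher, E2f1 among them. The share of all genes called in that setting is not given here. In both DN groups, replicate 2 had the lowest sum of tumour markers and the lowest sum of members.

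Under blockade no member passed the threshold of edgeR's test, in either cell type. Few genes of any kind passed it, so a count of 0 members is near the share of all genes. In DN cells, 0 of 48 members were called higher and 0 lower by the edgeR quasi-likelihood test (0.519% and 0.598% of all genes), while 8 had an unadjusted p under 0.05 and DESeq2 called 3 lower, Slbp, Mcm7 and Mcm5. The members' median log2 fold change of blockade over isotype was -0.12, with 15 of 48 above 0. The median moved with single libraries: without DN blockade library 2 the median was 0.02, with 25 members above 0. It was -0.04 with 22 above 0 without DN isotype library 3, and -0.20 with 9 above 0 without DN isotype library 2. Without the DN libraries lowest and highest in tumour markers it was -0.29, with 6 above 0. With a replicate block by title number, 0 members were called, and 28 genes were higher and 31 lower over all genes, beside 66 and 76 without the block. For 7 members every isotype library lay above every blockade library (10.2% of all genes): Mcm2, Mcm4, Mcm5, Mcm7, Rfc1, Pold1 and Slbp. E2f2 was the only member with every blockade library above every isotype library (6.49% of all genes). Slbp measured 117, 113 and 104 CPM under isotype and 86.6, 86.7 and 83.7 under blockade, a log2 fold change of -0.38 (SE 0.09, adjusted p = 0.07). The differences of Mcm5 and Mcm7 were -0.44 (SE 0.12, adjusted p = 0.089) and -0.43 (SE 0.11, adjusted p = 0.079). The differences of Pcna, Rrm2, Tyms and Cdc6 in DN cells, in the same order, were -0.19 (SE 0.12), 0.31 (SE 0.34), 0.13 (SE 0.13) and 0.23 (SE 0.28), with adjusted p between 0.49 and 0.74. Blood markers summed to 2708 to 5310 CPM in DN isotype and at most 118 in blockade libraries, and plasmacytoid dendritic cell markers to 1510 to 2242 and 880 to 1395; their part in these values was not tested.

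In DP cells, most members lay above 0 in the same contrast without passing the test. Again 0 of 48 were called by edgeR's quasi-likelihood test or by DESeq2 (0.00787% of all genes were called higher and 0.0551% lower by edgeR), and 8 had an unadjusted p under 0.05. Their median log2 fold change was 0.18, beside -0.01 over all genes, and 43 of 48 lay above 0. In 20 members every blockade library held more than every isotype library (8.20% of all genes). These were 5 of the 6 ring subunits (all but Mcm4), Gins1, Rfc2, Rfc5, Rpa1, Rpa2, Rpa3, Pold1, Pold2, Pole, Lig1, Rrm1, Rrm2, Chaf1a, Chaf1b and Ccne1. Chaf1a had the largest difference, from 40.3, 47.9 and 39.6 CPM under isotype to 63.9, 65.1 and 64.1 under blockade, 0.60 (SE 0.21, adjusted p = 0.59) on the log2 scale. Mcm2 differed by 0.29 (SE 0.09, adjusted p = 0.51) and Mcm5 by 0.25 (SE 0.11, adjusted p = 0.68), while Tyms stood at -0.02 (SE 0.13). The members' sums were 4986 to 5351 CPM under isotype and 5705 to 6096 under blockade, whereas the G2/M sums overlapped at 3219 to 3418 and 2988 to 3305. Blood markers summed to 1403 to 3286 CPM in DP isotype and at most 14.1 in DP blockade libraries, and their part in the members' values was not tested.

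Whether the gap between DP and DN was wider under blockade was tested as a difference of differences. It was called for 0 of 48 members by edgeR (0.00% of all genes), with 11 at an unadjusted p under 0.05, and DESeq2 called Mcm7, Mcm5 and Mcm2 higher. The median difference was 0.28, with 39 members above 0. Mcm5 had a difference of 0.69 (SE 0.16, adjusted p = 0.28), with DP over DN at 1.303 under isotype and 1.99 under blockade. Mcm7 had 0.68 (SE 0.15, adjusted p = 0.26), from 0.87 to 1.55, and Mcm2 0.47 (SE 0.12, adjusted p = 0.31).

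The genes around the members moved with them in DP cells. Of 50 other replication genes, 37 were higher in DP and 3 lower, with a median of 0.72. Among them were Pclaf, the Pcna-associated factor, at 2.64 (SE 0.20, adjusted p = 7.5e-07), the origin activator Ticrr at 2.00, the clamp loader subunit Chtf18 at 1.56, the Cdt1 inhibitor Gmnn (geminin) at 1.38, and the fork proteins Wdhd1 and Tipin at 1.31 and 1.17. Pold4 (0.29), Recql4 (0.72) and Rnaseh2a (0.23) did not pass the test, with adjusted p of 0.051 to 0.065. All 25 G2/M genes were higher, with a median of 1.68, among them the proliferation marker Mki67 at 2.09 and the spindle genes Kif11 at 2.10 and Nusap1 at 2.36. Mki67 ran from 32.8 to 54.7 CPM in DN and 162 to 204 in DP libraries.

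G1 drivers did not move as a group: of 6 genes, 2 were higher in DP and 3 lower. Cdk6, a kinase that phosphorylates the retinoblastoma protein, differed by 1.3 and cyclin Ccnd3 by 0.23, while Ccnd1, Ccnd2 and Myc differed by -0.72, -0.37 and -0.68. Among 13 tested inhibitors of division and quiescence genes, 4 were lower in DP and 2 higher. The quiescence factor Klf2 fell by 2.98 on the log2 scale, and the inhibitor Cdkn1b (p27) by 0.81, Btg1 by 0.77 and Tob1 by 0.81. Rbl2 and Cdkn1a (p21) were higher, by 0.77 and 0.99. Under blockade, 1 gene of the other replication list was lower in DN cells, Timeless at -0.67 (SE 0.13, adjusted p = 0.036, edgeR), and Myc fell by 0.86 (SE 0.16, adjusted p = 0.031). In DP cells, and for the difference of differences, edgeR called 0 genes of these 4 lists.

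Within the PD-1- cells, the memory-like libraries held the most replication gene mRNA and the naive-like libraries the least. The members summed to 2577 to 2961 CPM in memory-like, 2168 to 2514 in effector-like and 1666 to 2184 in naive-like libraries, the highest of the last being library 6. Against the other subsets together, 2 members were higher in memory-like cells and 0 lower (0.484% of all genes were called higher and 0.266% lower): Tyms, at 1.51 (SE 0.23, adjusted p = 0.0073), and Mcm2, at 0.77 (SE 0.13, adjusted p = 0.018), by edgeR's quasi-likelihood test, adjusted after Benjamini-Hochberg. The count was 5 without naive-like library 6, 4 without naive-like library 4, 1 without effector-like library 2 and 8 with DESeq2. With a replicate block by name number it was 0, and by title number 1, Tyms. The members' median log2 fold change was 0.64, beside 0.01 over all 12388 genes, 42 of 48 lay above 0, and 18 had an unadjusted p under 0.05. In 6 members every memory-like library lay above every other library (0.517% of all genes): Mcm2, Mcm5, Mcm7, Rfc4, Rrm1 and Rrm2. Libraries of a group differed more here than DN and DP libraries did (biological coefficient of variation 0.624 against 0.229).

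Against naive-like cells alone, 8 members were higher in memory-like cells and 0 lower (2.78% of all genes were called higher and 2.73% lower), and the median was 0.85. Every memory-like library lay above every naive-like library for 14 members (2.87% of all genes). Tyms held 111, 89.9, 104, 80.9 and 59.7 CPM in memory-like, 87.3, 40.6 and 35.7 in effector-like and 10.7 to 21.7 (median 18.5) in naive-like libraries. The lowest memory-like library, 59.7, stood well above the highest naive-like one, and the log2 fold change was 2.32 (SE 0.26, adjusted p = 0.00022). Mcm2 held 149, 174, 139, 149.6 and 192 CPM in memory-like, 114, 103 and 90.4 in effector-like and 59.6 to 103 (median 87.3) in naive-like libraries. The memory-like libraries were above all others, with a log2 fold change over naive-like cells of 0.89 (SE 0.14, adjusted p = 0.0027). The ligase Lig1 stood at 37.5, 55.7, 32.3, 57.3 and 70.03 CPM in memory-like, 36.2, 29.9 and 36.5 in effector-like and 9.06 to 25.1 (median 16.6) in naive-like libraries, with no overlap between memory-like and naive-like and a log2 fold change of 1.56 (SE 0.26, adjusted p = 0.0029). Asf1b measured 32.8, 55.9, 24.2, 36.5 and 37.99 CPM in memory-like, 18.8, 17.96 and 25.8 in effector-like and 1.501 to 13.1 (median 10.1) in naive-like libraries, a log2 fold change of 2.00 (SE 0.40, adjusted p = 0.0087). For Rfc4 the values were 32.4, 20.8, 28.6, 33.5 and 35.1 CPM in memory-like, 20.3, 15.9 and 20.5 in effector-like and 8.003 to 17.8 (median 13.6) in naive-like libraries, with a log2 fold change of 1.16 (SE 0.25, adjusted p = 0.015). The polymerase subunit Pola1 ran at 49.8, 69.2, 48.5, 57.8 and 31.7 CPM in memory-like, 26.9, 40.5 and 35.9 in effector-like and 5.89 to 29.4 (median 17.7) in naive-like libraries. Its lowest memory-like and highest naive-like library were close, at 31.7 and 29.4, and the log2 fold change was 1.54 (SE 0.34, adjusted p = 0.015). Mcm7 and Mcm3 completed the 8, with 0.77 (SE 0.18, adjusted p = 0.023) and 0.64 (SE 0.17, adjusted p = 0.037); Mcm3 overlapped, with 116 in the lowest memory-like and 128 in the highest naive-like library.

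Several other members differed as much on the log2 scale without passing the threshold. Rrm2 held 81.2, 139, 74.9, 87.7 and 85.4 CPM in memory-like, 71.3, 43.2 and 46.7 in effector-like and 0.463 to 74.4 (median 9.18) in naive-like libraries. The top naive-like value, 74.4, was library 6, and the log2 fold change was 2.33 (SE 0.80, adjusted p = 0.1). Mcm5 held 147, 98.4, 118, 144 and 159 CPM in memory-like, 91.5, 67.6 and 89.2 in effector-like and 0.816 to 76.2 (median 43.8) in naive-like libraries, without overlap between memory-like and naive-like, and 1.67 (SE 0.53, adjusted p = 0.082) on the log2 scale. Cdc6 was listed at 0 in 4 of 6 naive-like libraries and at 3.07 and 5.99 CPM in the other two, against 10.6, 10.7, 9.03, 10.7 and 14.95 in memory-like and 6.69, 10.4 and 3.12 in effector-like libraries; the log2 fold change was 2.86 (SE 1.16, adjusted p = 0.18). E2f1 was low everywhere, at 8.54, 0.736, 5.68, 5.01 and 5.03 CPM in memory-like, 5.77, 5.36 and 3.12 in effector-like and 0.438 to 6.63 (median 2.06) in naive-like libraries, with 0.81 (SE 0.72, adjusted p = 0.6).

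Pcna and the 4 most abundant of the other members not called against naive-like cells overlapped between the subsets. Pcna stood at 100, 102, 96.1, 127 and 139.6 CPM in memory-like, 88.5, 97.3 and 94.3 in effector-like and 91.96 to 107 (median 93.7) in naive-like libraries. Its groups overlapped, with a log2 fold change of memory-like over naive-like cells of 0.22 (SE 0.12, adjusted p = 0.33). Mcm6 held 198, 202, 235, 203 and 288 CPM in memory-like, 238, 192 and 162 in effector-like and 152 to 247 (median 178) in naive-like libraries, and Mcm4 140.1, 183, 141, 157 and 162 CPM in memory-like, 165, 131 and 187 in effector-like and 160.3 to 217 (median 171) in naive-like libraries. Their log2 fold changes were 0.30 (SE 0.15) and -0.21 (SE 0.12), and their ranges overlapped. Rpa1, at 160.5, 118, 99.6, 137 and 135 CPM in memory-like, 144, 133 and 152 in effector-like and 133 to 175 (median 146) in naive-like libraries, and Slbp, at 124, 138, 109, 117 and 149 CPM in memory-like, 118, 84.3 and 128 in effector-like and 117 to 140 (median 123) in naive-like libraries, overlapped as well, with log2 fold changes of -0.21 (SE 0.13) and 0.01 (SE 0.13). Cdt1 stood at -0.39 (SE 0.19). The adjusted p of these 5 genes ran from 0.25 to 0.97. By role, the median log2 fold change over naive-like cells was 2.19 for nucleotide supply, 1.56 for lagging strand processing and repair, 1.31 for chromatin copying, 1.20 for G1/S regulators, 0.89 for the helicase, 0.49 for clamp, loader and single-strand binding, and 0.39 for polymerases and primase.

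**Figure D4:**
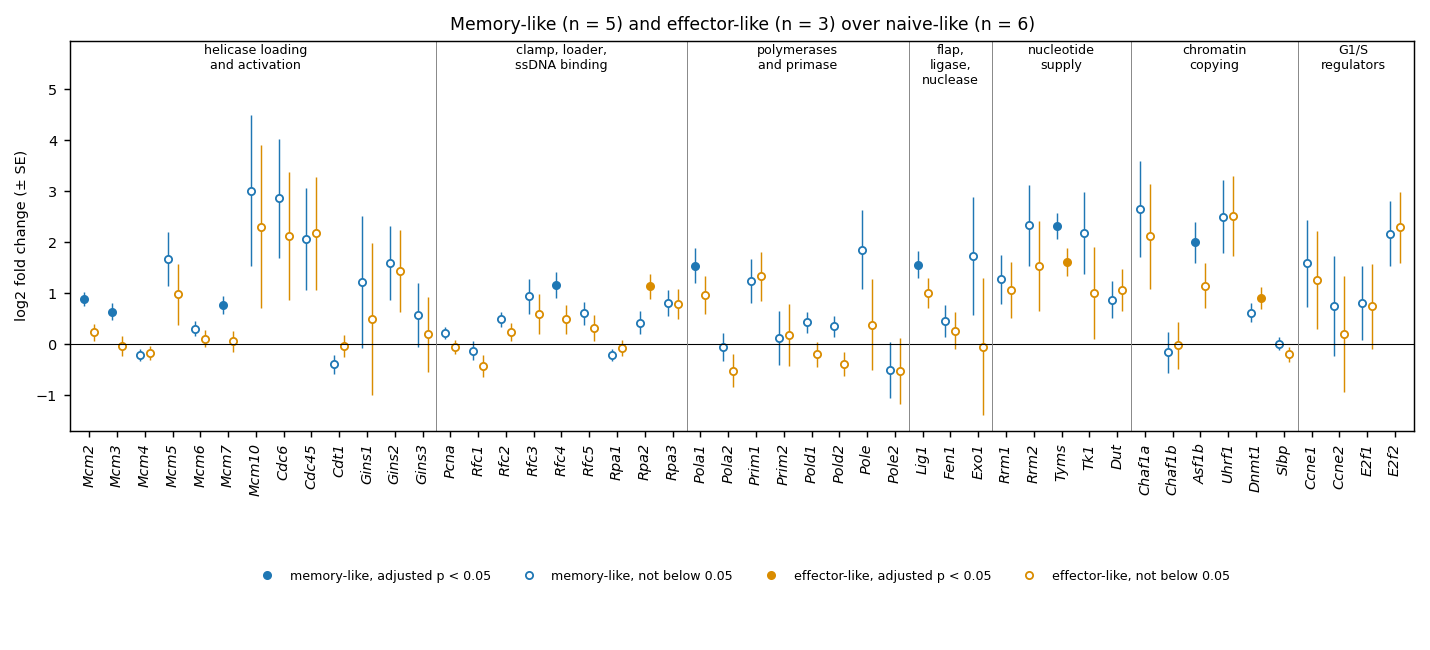
Log2 fold change (y axis, points with bars of 1 SE) of memory-like (blue, n = 5) and effector-like (orange, n = 3) over naive-like libraries (n = 6) for each of the 48 members (x axis, by role), filled where the adjusted p is under 0.05. Both comparisons share the naive-like libraries; 8 blue and 3 orange points are filled, and Mcm10, Cdc6, Cdc45, Rrm2 and Uhrf1 lie high with long bars.

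Effector-like cells had 3 members higher than naive-like cells and 0 lower (2.62% of all genes were called higher and 3.79% lower), with a median of 0.49 and 35 of 48 above 0. Without effector-like library 3 the count was 1, and without naive-like library 6 it was 9. The 3 were Tyms, at 1.61 (SE 0.28, adjusted p = 0.002), the single-strand binding subunit Rpa2, at 1.13 (SE 0.25, adjusted p = 0.012), and Dnmt1, at 0.91 (SE 0.21, adjusted p = 0.015). Rpa2 held 73, 112, 72.9, 80 and 62.9 CPM in memory-like, 139.7, 104 and 149.5 in effector-like and 34.7 to 95.6 (median 57.2) in naive-like libraries, so that the effector-like libraries were higher than all naive-like ones. Dnmt1 held 92.3, 119.9, 89.9, 129 and 79.8 CPM in memory-like, 91.1, 144 and 139.8 in effector-like and 50.4 to 84.9 (median 64.4) in naive-like libraries, again with no overlap between effector-like and naive-like. In 10 members every effector-like library lay above every naive-like library (6.32% of all genes). The comparisons of memory-like and of effector-like cells with naive-like cells share the naive-like libraries and are not independent.

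Memory-like and effector-like cells did not differ past the threshold in any member by edgeR (0 higher and 0 lower, beside 1.43% and 0.484% of all genes), with 8 at an unadjusted p under 0.05, and DESeq2 called Mcm2 higher. The median log2 fold change was 0.32, with 36 of 48 above 0, and 8 members had every memory-like library above every effector-like library (5.26% of all genes): Mcm2, Mcm3, Mcm5, Mcm7, Rfc4, Pold2, Rrm1 and Rrm2. Mcm2 differed by 0.65 (SE 0.18, adjusted p = 0.09) and Tyms by 0.71 (SE 0.31, adjusted p = 0.37), and Rpa2 lay on the other side, at -0.71 (SE 0.26, adjusted p = 0.26).

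Naive-like library 6, which held most of the tumour markers in its group, also had the highest member sum of the naive-like libraries. Without it, 16 members were called higher in memory-like than naive-like cells, among them all 8 named above and Rrm2, Uhrf1, Tk1, Chaf1a, E2f2, Dut, Dnmt1 and Mcm5, and 9 in effector-like cells, among them the 3 above. Without the 3 libraries rich in tumour markers, 13 were called in memory-like cells, the 8 among them, and 0 in effector-like cells, of which 1 library then remained. Calls over all genes with these libraries left out are not given here, so these counts are not read as particular to the members. Plasmacytoid dendritic cell markers summed to 300.4 to 1739 CPM in memory-like, 56.8 to 154 in effector-like and 65.4 to 408 in naive-like libraries, and Siglech reached 416 CPM in memory-like libraries. CD4 T cell markers summed to 39.2 to 77.5, 3.94 to 13.4 and 13.9 to 36.4 CPM in the same order. Myeloid markers summed to 16.6 to 530 CPM in memory-like, 41.4 to 477 in effector-like and 20.1 to 1065 in naive-like libraries. For NK and gamma-delta T cell markers the sums were 24.1 to 79.6, 98.4 to 136 and 20.7 to 38.0 CPM in that order. The part of these markers in the members' differences was not tested. Without TMM scaling the median of all genes rose to 0.12 for memory-like and 0.25 for effector-like over naive-like cells, the members' medians to 0.96 and 0.70, and the calls over all genes split into 580 higher and 229 lower in place of 345 and 338, and 681 and 340 in place of 325 and 470.

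G2/M genes moved with the members in memory-like cells, where 11 of 25 were higher than in naive-like cells, with a median of 2.57. Mki67 ran from 0 to 8.66 CPM in naive-like, 22.3 to 36.1 in effector-like and 42.4 to 89.6 in memory-like libraries, a log2 fold change of 3.88 over naive-like cells. Kif11, a spindle motor, differed by 5.81 and Nusap1 by 5.20. Of the 50 other replication genes only Pclaf (3.74), Fbxo5 (1.70), which restrains the anaphase-promoting complex, and Gmnn (1.32) were higher. The memory-like libraries held Pclaf at 34.8 to 75.1 CPM and the effector-like ones at 24.8 to 34.4, while it lay at 0.15 to 1.35 in naive-like libraries 1 to 5 and 22.04 in library 6. The inhibitors Tob1 and Btg1 were lower in memory-like than naive-like cells, at -1.08 and -0.83. Myc, a driver of growth, was higher in memory-like cells than in the rest, by 1.35 (SE 0.14, adjusted p = 0.00062, edgeR quasi-likelihood test), and lower in effector-like than naive-like cells, at -2.43. Memory-like cells differed in Myc past the threshold from effector-like cells alone, and not from naive-like cells alone. Cdkn1a was lower in memory-like than effector-like cells, at -1.71 (adjusted p = 0.0042).

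Levels of different members can be set side by side on the deposited normalized signal, whose factor per gene follows transcript length (Spearman correlations across genes of 0.646 and 0.669). On that scale the highest group means in DN isotype libraries were those of Pcna (85.3), Mcm6 (72.6) and Slbp (67.8), and the lowest that of Exo1 (1.16). In DP isotype libraries Rrm2 came first, at 134, followed by Pcna at 130.1 and Mcm6 at 129, and Rrm2 reached 161 in DP blockade libraries. In memory-like libraries the order was Pcna (93.1), Slbp (81.2) and Mcm6 (80.7), and in naive-like libraries Slbp (79.2) and Pcna (78.7). The order within these trios was not tested.

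Single DN cells were examined for how the members are shared out among cells. The table's suffixes 1 and 2 are not tied to a library by its columns, so they are named as suffixes. Kept were cells with 500 or more genes and no more than 10% of UMIs from mitochondria, 2950 and 2502 of them, with a median of 3652 and 3840 UMIs, and 7 barcodes occurred with both suffixes. With 1 library per suffix there is no test, and intervals (95%, exact) cover counting error only. Members summed to 1208 CPM of UMIs (1188 to 1227) in suffix 1 and 1468 (1446 to 1489) in suffix 2. At least 1.5-fold higher in suffix 2 were 10 of 48 members, and 0 were lower, beside 19.9% and 5.66% of all genes; the members' median log2 ratio was 0.33 and that of all genes 0.17. The members' share past the fold is near that of all genes and is no result about the members.

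The 10 members past 1.5-fold were Cdc6, Rrm2, Tk1, Chaf1a, Cdc45, E2f2, Rpa2, Rrm1, Tyms and Asf1b. Rrm2 had 328 UMIs in suffix 1 and 695 in suffix 2, or 26.5 and 56.1 CPM, a log2 ratio of 1.08 (0.89 to 1.28). Cdc6 had only 22 and 55 UMIs, with a log2 ratio of 1.32 (0.58 to 2.11), and Tk1 171 and 349, with 1.03. The helicase ring differed little: Mcm2 had 475 and 448 UMIs, a log2 ratio of -0.09, and Mcm7 stood at -0.03. Pcna stood at 0.14 and Rpa1 at 0.02. Rfc1 was the lowest, at -0.47. In bulk DN cells edgeR called none of the members under blockade, and few genes of any kind.

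**Figure D5:**
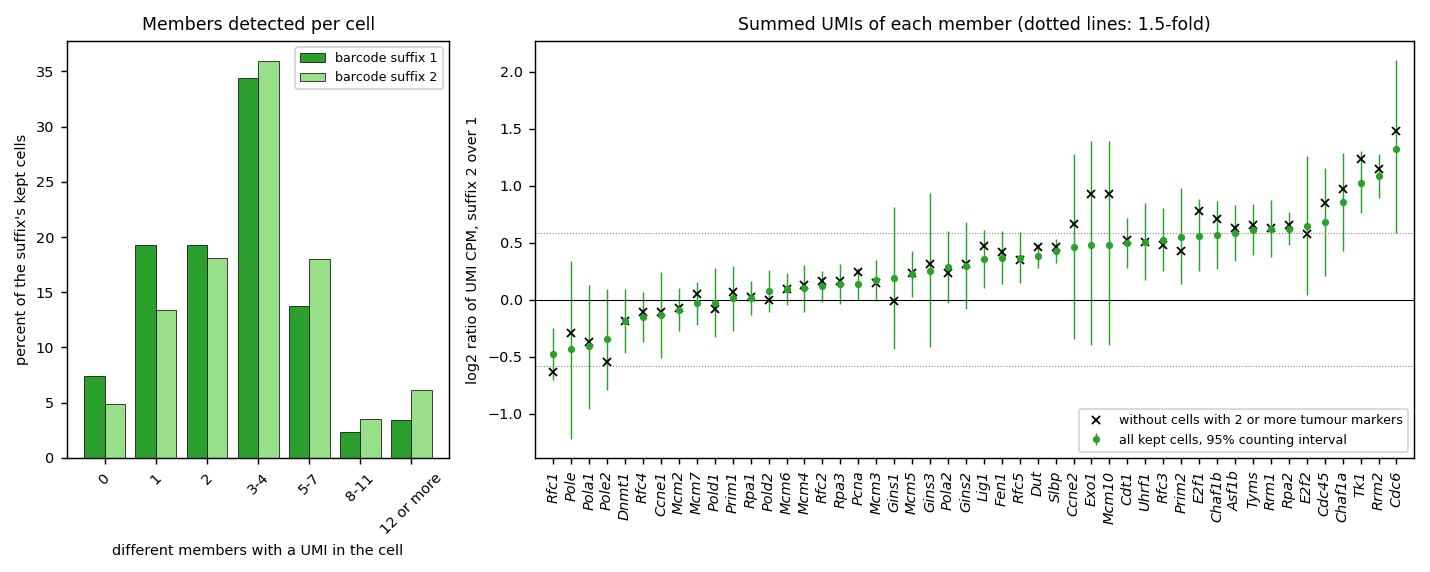
Left, percent of kept cells (bar height) by the number of different members with a UMI, for suffix 1 and suffix 2. Right, log2 ratio of each member's UMI CPM in suffix 2 over suffix 1 (points with 95% counting intervals) and the same without cells that hold 2 or more tumour markers (crosses), with dotted lines at 1.5-fold; Rrm2, Tk1 and Cdc6 lie at the right end and Rfc1 at the left.

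Cells with 5 or more different members made up 19.6% (18.1 to 21.04) of suffix 1 and 27.7% (25.9 to 29.5) of suffix 2. With each cell thinned to 2400 UMIs, which left out 506 shallower cells of suffix 1 and 0 of suffix 2, the shares were 7.32% (6.32 to 8.43) and 10.4% (9.26 to 11.7). In cells with UMIs of both Ccr7 and Lef1, naive T cell genes (913 and 336 cells, median 4073 and 4332 UMIs), the share was 22.7% and 25.9% before and 6.49% and 6.55% after thinning. These cells give no background level for the members. They made up 38.2% of the cells with 12 or more members in suffix 1, beside 30.9% of all its cells, and held 1223 CPM of member UMIs there, beside 1208 in all cells. Suffix 2 went the other way. There they made up 6.54% of the cells with 12 or more members, beside 13.4% of all cells, and held 1098 CPM, beside 1468. The shares among cells with 12 or more members were not thinned. Those cells had median UMI counts of 7974 in suffix 1 and 7558 in suffix 2, above those of all cells. At the high end, 12 or more members were found in 102 cells of suffix 1 (3.46%) and 153 of suffix 2 (6.12%), of which 44.1% and 61.4% also held at least 3 G2/M genes. Cells with no member at all were 7.39% and 4.92%.

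Cells with at least 3 G2/M genes numbered 73 (2.47%) in suffix 1 and 140 (5.60%) in suffix 2, and 80.8% and 81.4% of them held 5 or more members. Members summed to 3674 and 3373 CPM in these cells, beside 927 and 1008 in the rest. Their median UMI counts were 8393 and 7510, above those of all cells, 16 and 24 of them lay at the cut of 3 genes, and no doublets were removed. Without cells that held 2 or more tumour markers, the G2/M class numbered 53 and 121 cells. Members then summed to 5509 and 4610 CPM in the class, beside 919 and 1010 in the rest. Without tumour-marker cells, and over both suffixes, Cdc6 was 70.6 times, Rrm2 65.8 times and Mcm10 60.4 times as high in CPM in the G2/M class as in other cells, followed by Tk1 at 38.6, Exo1 at 32.8 and Asf1b at 23.1. No interval was computed for these ratios, and that of Cdc6 rests on few UMIs. Rpa1, Rpa2 and Cdt1 had the smallest ratios, 1.98, 2.04 and 2.45. Of these, Cdt1 alone lay below 0 in DP over DN in bulk, while Rpa1 and Rpa2 were higher in DP. A link between the ratios and the bulk differences was not tested. Tumour markers (2 or more) were found in 33 and 30 cells, with median UMI counts of 6055 and 59549, of which 20 and 19 were in the G2/M class and 12 and 6 held no core T cell marker. Without those cells the member sums were 1115 and 1372 CPM, and 14 members were at least 1.5-fold higher and 1, Rfc1 at -0.64, lower in suffix 2 (18% and 6.59% of all genes).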

How the data were processed

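Gene expression was measured in 26 bulk libraries of sorted cells, made with an adapted SMART-Seq2 protocol per the labels, and in a pair of 10x single-cell libraries. The submitters' processing notes name TopHat, RSEM, DESeq and mm9 for the bulk data, and Cell Ranger 1.3 and mm10 for the single cells, with no role or order. The deposited count tables hold expected counts (estimated counts per gene, 22.6% and 30.5% of them not whole), which were rounded to whole numbers. The authors' normalized bulk values are a signal whose scale no source used here names, and they served only to set levels of different genes side by side. The deposited single-cell table holds UMI counts, and the authors' scaled table holds natural log values and was not used for the members' values.

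Each experiment was fitted on its own groups, all together, with edgeR 4.0.16 in R 4.3.3 (filterByExpr, TMM, quasi-likelihood test). Of the subset table, 4 rows whose name occurs more than once were not used. A gene was called when its p, adjusted after Benjamini-Hochberg over all genes tested, was under 0.05. DESeq2 1.42.0, library totals without TMM, no filter on low counts, each library left out and replicate blocks were the alternatives; those that leave out libraries or cells by tumour markers or by principal components were chosen after seeing the data. By title number, the deviations of the 3 pairs of DN isotype and DN blockade libraries correlated at 0.153, 0.464 and 0.223, all over 0.1, though the labels name no shared animal, day or batch for a number.

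The members and lists were chosen with earlier results of these data known. Values by library are given for the called members with the smallest p, up to 12 a comparison, for the 4 most abundant members not called, and for Pcna, Mcm2, Mcm5, Tyms, Rrm2, Cdc6 and E2f1; genes of other lists are named up to 6 called and 3 not called. Any other member named with its values was chosen after those were seen. Cells entered with 500 or more genes and no more than 10% of UMIs from mitochondria; no doublets were removed. Intervals are exact at 95% (Poisson for UMI sums, Clopper-Pearson for shares) and cover counting error only. Promoter windows were matched by symbol in Python 3.11.15. The result of a gene of the subset sort is not reported here.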

Additional observations from a re-analysis of the deposited data

Results flagged for a closer look

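In groups of 4 to 10 libraries, a library was set apart where its gap to the nearest other library, divided by the range of the group, passed Dixon's 95% critical value. Of 38 groups of values tested, 7 did, and chance alone marks about 1 in 20. Naive-like library 6 gave 3 of the 7: its Rrm2, at 74.4 CPM, lay above the 0.463 to 16.9 of the other naive-like libraries, its G2/M sum, at 301 CPM, above their 110 to 149, and its tumour and stroma sum, at 565 CPM, above their 15.2 to 26.7. Memory-like library 2 gave 2: its Rrm2 was 139 CPM, beside 74.9 to 87.7 in the other memory-like libraries, and its G2/M sum 1375 CPM, beside 418 to 635. Memory-like library 5 had Cdc6 at 14.95 CPM, beside 9.03 to 10.7. Naive-like library 5 had Asf1b at 1.501 CPM, below the 8.91 to 13.1 of the other naive-like libraries.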

How the results depend on the processing

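The called members followed through the alternatives, 12 each in DP against DN and 2, 8 and 3 in the subset comparisons, kept their direction; in DN cells under blockade the members' median turned above 0 without DN blockade library 2. The counts over members in DP against DN stayed at 45 to 47 higher when each library was left out in turn, at 40 to 43 under isotype and at 41 to 46 under blockade. The subset counts depended on the libraries and the tool. Memory-like against the rest, 2 members higher, gave 8 with DESeq2, 5 without the libraries that stand apart on principal components (memory-like 2, naive-like 4 and 6), and 1 to 5 with each library left out, with 5 without naive-like library 6, 4 without naive-like 4 and 1 without effector-like 2. Memory-like against naive-like, 8 higher, gave 13 without TMM, 16 with DESeq2, 13 without the libraries rich in tumour markers, 15 without those apart on principal components, and 6 to 16 with each library left out (16 without naive-like 6, 6 without memory-like 1 or 5). Memory-like against effector-like, 0 higher, gave 1 with DESeq2 and 0 to 1 with each library left out (1 without effector-like 1 or naive-like 2), and 1 lower, Rpa2, without the libraries apart on principal components. Effector-like against naive-like, 3 higher, gave 6 without TMM, 5 with DESeq2, 0 without the libraries rich in tumour markers, 14 without those apart on principal components, and 1 to 9 with each library left out (9 without naive-like 6, 1 without effector-like 3). In DN cells under blockade, DESeq2 gave 3 lower, and leaving out the lowest and highest tumour-marker libraries gave 1 lower, Mcm7; for the difference of differences DESeq2 gave 3 higher. The cause of these moves was not tested, and counts over all genes with libraries left out are not given here. For single members, 17 of 184 values in memory-like against naive-like, 11 of 69 in effector-like against naive-like and 4 of 44 in memory-like against the rest no longer passed the test.

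Over all genes, DESeq2 called 261 higher and 155 lower in memory-like against the rest (60 and 33 by edgeR), 661 and 534 against naive-like (345 and 338), 340 and 144 against effector-like (177 and 60), 250 and 291 in DN under blockade (66 and 76), 33 and 23 in DP (1 and 7), and 50 and 47 for the difference of differences (0 and 0).

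Library numbers were not shown to pair the samples. In the treatment experiment, each name number is shared by a DN and a DP library of the same treatment. Of these 6 correlations of deviations, 4 passed 0.1 (range 0.02 to 0.38). By title number 4 of 18 did, among them all 3 pairs of a DN isotype and a DN blockade library. In DP against DN, 46 members were called with a replicate block by name number and 45 with a block by title number. A replicate block by title number gave 1 member higher in memory-like against the rest, 15 against naive-like and 5 in effector-like against naive-like; a replicate block by name number gave 0, 3 and 0. The block by title number left the count of members in DN cells under blockade at 0. For blockade against isotype in DN and in DP cells, the block by name number could not be fitted, since each number occurs under 1 treatment only. In the single cells, without tumour-marker cells 1 member was lower. Shares of cells with at least 3 members were 54.0% and 63.6% (30.5% and 37.3% thinned), with at least 8 members 5.80% and 9.67% (2.45% and 4.20%), and, for at least 5, 2.24% and 4.04% when thinned to 1200 UMIs. Members with few counts are limited by depth, such as Cdc6 with 0 in 4 naive-like libraries.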
